A study of Mus musculus with 3 samples.

Results

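The genes described here encode the protein subunits of the cytosolic ribosome. They were chosen by symbol: every gene of the deposited tables whose name starts with Rpl or Rps followed by a number and at most a letter a, l or x and a digit, together with Rplp0, Rplp1, Rplp2 and Rpsa. The rule found 84 of 27998 genes. Of these, 46 encode proteins of the large subunit, 31 encode proteins of the small subunit, and 7 are paralogues or genes named as like a ribosomal protein (Rpl22l1, Rpl6l, Rps27l, Rpl10l, Rpl39l, Rpl3l and Rpl7l1). Fau, whose product is a ribosomal protein fused to a ubiquitin-type domain, and Gnb2l1, the scaffold protein RACK1 of the small subunit, do not match the rule and were kept apart.

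Ribosomes translate mRNA in every cell, and their protein subunits are made in near equal amounts from mRNAs that are among the most abundant of a cell. Most of these mRNAs start with a short tract of pyrimidines, the 5′ terminal oligopyrimidine (TOP) motif, through which growth signals that act by the kinase mTOR set how fast they are translated. In single-cell RNA data their summed share differs between cell types, and small resting lymphocytes are known for a high share.

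Cells were sorted from suprarenal aortas of mice and sequenced as 3 libraries, 1 for each group, with the aortas of a group pooled. The control library held 5 C57Bl/6 mice on chow, the room air library 5 Apoe-/- mice on a Western diet (which the labels also call a high fat diet) for 16 weeks, and the aneurysm library 4 Apoe-/- mice on that diet with cigarette smoke for 16 weeks, chosen because they had developed a measurable dilatation of the aorta. The sort joined cells with CD45 and without CD31 to cells with CD31 and without CD45. Room air against control therefore compares lack of Apoe and the diet together, and aneurysm against room air compares smoke and the selection for dilatation together. Age and sex were not given in the sources used here.

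No value below has a replicate, and no test between groups was possible. Intervals are 95% intervals that cover counting error only, and the spread between mice was not measured. After filtering, 773 control, 1821 room air and 2775 aneurysm cells were kept, with medians of 2681, 3835 and 4405 unique molecular identifiers (UMIs, counts of captured mRNA molecules). The stated viability was 73%, 91% and 94%, so control stood apart in depth and viability. Levels are in CPM, the UMIs of a gene per 1000000 UMIs of the class or library. Apoe was at 10532 CPM in control against 17.1 and 13.03 CPM in the Apoe-/- libraries. Ptprc, which encodes CD45, was at 285, 357 and 366 CPM in the leukocyte classes and at 23.5 to 31.0 in the endothelial-like class. Control and room air shared 4 cell barcodes, room air and aneurysm shared 5, and control and aneurysm shared 0.

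All 84 genes were detected, and 82 had at least 50 UMIs over the 3 libraries. The other two, Rpl39l and Rpl10l, are known from male germ cells. The 77 genes of the large and small subunit ranged from 671 to 7152 CPM over the 3 libraries together, with a median of 2299, and 53 of the 84 stood among the 100 genes with the most UMIs. Because the assay counts the 3′ ends of molecules, a level was not divided by gene length. Rps27 had the most UMIs at 7152 CPM, followed by Rpl41 at 6037, Rps29 at 5907, Rps19 at 5498 and Rpl13 at 4890.2. Together these 5 genes held 15.2% of the ribosomal protein UMIs. Large-subunit genes held 10.6% of all UMIs, small-subunit genes 8.67% and the 7 paralogue or like genes 0.183%.

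Sequence around the transcription start was taken from RefSeq on GRCm38.p6, where 63 of the 84 genes were matched, 57 of them subunit genes. A run of at least 8 pyrimidines lay within 20 bases either side of the start in 26 of the 57 (45.6%), against 15.9% of 27025 promoters of all genes and 17.4% of 69 promoters of mitochondrial ribosomal protein genes. The windows below show genes on which results turn, 30 bases before and 20 bases from the start site on, 5′ to 3′. Capitals mark the longest pyrimidine run within 20 bases of the start.
Rpl4 (chr9:64173357-64173406, plus strand): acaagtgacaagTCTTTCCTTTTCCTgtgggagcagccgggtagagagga
Rps15a (chr7:118116128-118116177, minus strand): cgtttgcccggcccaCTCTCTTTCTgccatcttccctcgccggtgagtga
Rpl22l1 (chr3:28805478-28805527, plus strand): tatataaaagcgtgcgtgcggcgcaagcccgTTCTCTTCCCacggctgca
Rps27 (chr3:90213629-90213678, minus strand): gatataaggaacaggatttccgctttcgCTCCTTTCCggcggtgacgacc
Rps27l (chr9:66946056-66946105, plus strand): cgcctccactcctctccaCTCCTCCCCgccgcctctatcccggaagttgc
Rps26 (chr10:128626487-128626536, minus strand): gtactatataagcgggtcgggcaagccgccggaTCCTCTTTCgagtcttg
Rpl10 (chrX:74270786-74270835, plus strand): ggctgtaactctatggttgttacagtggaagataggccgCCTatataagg
Rpl41 (chr10:128549149-128549198, minus strand): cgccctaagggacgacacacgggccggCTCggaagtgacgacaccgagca
Rpl4 carried a run of 14, Rps15a and Rpl22l1 runs of 10, and Rps27, Rps27l and Rps26 runs of 9. The runs of Rpl4, Rps15a and Rps27l lay wholly before the start used, so an mRNA begun there would not hold them. The 26 of 57 genes include runs on either side of the start, so this is not a count of TOP tracts. Rpl10 and Rpl41 had no run longer than 3 within 20 bases of the start used. For each gene this was the first start listed, and start sites in these cells were not measured. A tract at another start would be missed. Rpl41 had the most UMIs after Rps27, which carried a run of 9.

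Other motifs were searched in 300 bases, from 250 before to 50 after the start, on both strands. The core CCGGAAG of ETS-type factors was found in 23 of 57 subunit genes (40.4%) against 9.12% of all promoters and 36.2% of the 69 mitochondrial ribosomal protein promoters. Its reverse strand holds CTTCC, so it can overlap a pyrimidine run. The palindrome CTCGCGAG was in 6 (10.5%) against 0.958%, GGGCGG in 34 (59.6%) against 35.9%, TATAAA in 5 (8.77%) against 14.2%, and AAGATGGC in 4 (7.02%) against 2.88%. In the mitochondrial ribosomal protein promoters these were at 2.899%, 49.3%, 5.80% and 17.4%, so AAGATGGC was more frequent there than in the cytosolic set. A match is a description of letters, not of a bound site.

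In the mouse annotation GENCODE M21 (GRCm38), which matched all 84 genes, 83 are protein-coding and Rpl6l is a processed pseudogene. Ribosomal protein genes have many pseudogene copies, and reads from near-identical copies cannot be told apart. Of the 84 genes, 37 shared at least 1 stretch of 98 bases, the length of the sequenced read, with another annotated gene, and 13 shared at least 50% of such stretches. The latter were Rps27 (98.4%, with Rps27rt), Rpl10, Rpl10a, Rps6, Rps12, Rpl13, Rps13, Rpl24, Rps10, Rpl15, Rpl27, Rpl36a and Rpl13a, and their levels are uncertain. Rps29 (chr12:69157722-69159186), Rps28 (chr17:33819027-33824562), Rpl3 (chr15:80077791-80091868), Rpl4 (chr9:64173375-64178666) and Rps27l (chr9:66946086-66949516) shared 25.3%, 38.3%, 3.19%, 0% and 0%.

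Cell classes were named from marker genes, in clusters found with the ribosomal protein genes left out, and each carries the suffix -like. Among classes with at least 25 cells in a library, T-cell-like cells had the highest summed ribosomal protein share in every library. The share of their UMIs was 41.7% in the control library (41.5 to 42.0) and 29.3% in room air (29.2 to 29.4), with 37.2% in aneurysm (37.1 to 37.3). B-cell-like cells followed in room air and aneurysm, with 29.4%, 28.4% and 32.1% in control, room air and aneurysm. In control, cells like type 2 innate lymphocytes (ILC2-like), at 31.7%, stood between them.

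Macrophage-like cells lay near the other end, with 16.1% in control and 14.5% and 15.1% in the room air and aneurysm libraries. Among classes of that size, mature-dendritic-cell-like cells alone were lower in room air and aneurysm, at 13.6% and 14.5%, and they had 0 cells in control. The 8 fibroblast-like cells of room air had 10.5%. The share of the endothelial-like cluster, led by Cytl1, Tm4sf1 and Clu, was 16.8%, 15.04% and 17.3%. All 16 endothelial markers were detected in it in each library, and its summed smooth muscle markers were 0.0844%, 0.349% and 0.115% of UMIs. Monocyte-like cells had 20.5%, 16.8% and 16.1%, and cDC1-like cells, the dendritic cells that cross-present antigen, had 24.0%, 20.2% and 20.2%. Among the classes with at least 25 cells in both Apoe-/- libraries, NK-like cells had 24.8% and 28.3%, gamma-delta-T-like cells 21.7% and 19.6%, cDC2-like cells 17.5% and 18.5%, and neutrophil-like cells 15.1% and 17.0%. In the Apoe-/- libraries the T-cell-like, B-cell-like and NK-like classes thus lay above every dendritic, monocyte-like, macrophage-like and neutrophil-like class, while gamma-delta-T-like cells lay above the cDC1-like level in room air and below it in aneurysm.

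**Figure D1:**
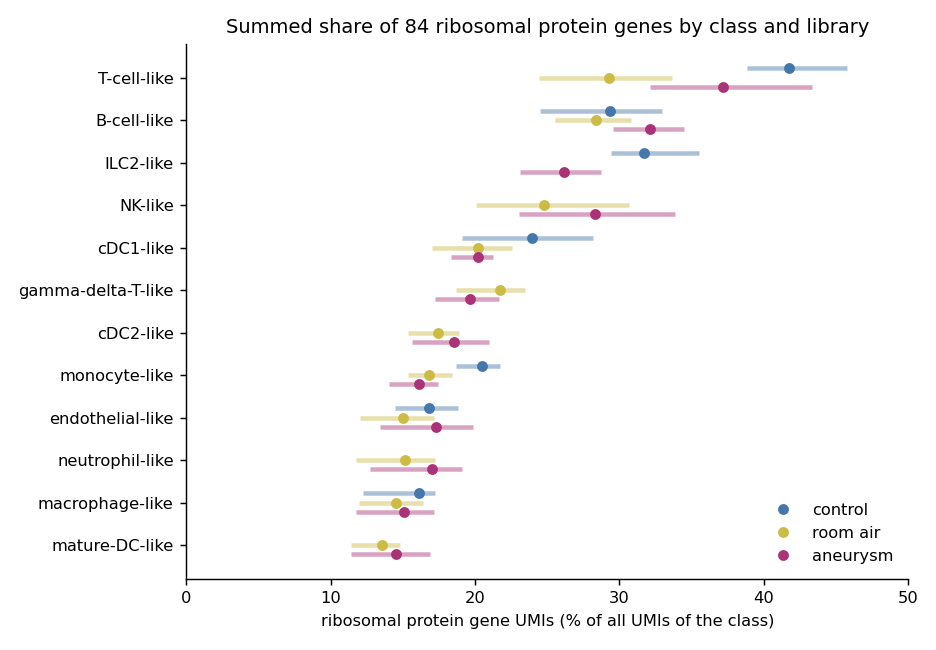
Summed share of the 84 ribosomal protein genes in all UMIs of a class (points) for each library, with bars from the lower to the upper quartile over cells, for classes of at least 25 cells in a library. T-cell-like cells stand highest in each library, at 41.7%, 29.3% and 37.2%, and macrophage-like cells lie between 14.5% and 16.1%.

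Room air was lower than control in each of the 6 classes with at least 25 cells in all 3 libraries. Of the smaller classes, NK-like cells (22.7% in 24 control cells, 24.8% in room air) and neutrophil-like cells (14.0% in 11 control cells, 15.1% in room air) went the other way. So did fibroblast-like cells (7.97% in 1 control cell, 10.5% in 8 room air cells). The cDC2-like, ILC2-like, gamma-delta-T-like and plasmacytoid-dendritic-cell-like cells were lower in room air, the last with 1 control cell. The ratio of summed shares was 0.702 in T-cell-like (0.697 to 0.708), 0.821 in monocyte-like, 0.842 in cDC1-like, 0.893 in endothelial-like, 0.901 in macrophage-like and 0.966 in B-cell-like cells. Depth, viability and the median mitochondrial share (2.74% in control against 2.16% in room air) also separate these libraries, and their part in the ratios was not tested. Control cells of the macrophage-like class came mostly from cluster 6 (317 of 336 cells), led by Apoe, Retnla, Ccl24 and Lyve1, whereas room air cells came mostly from clusters 2 (308 of 588) and 3 (209), led by Ccl12 and Ifit3 and by Spp1, Gpnmb and Mmp12. Without cluster 6 the macrophage-like ratio was 0.761, from only 19 control cells. Apoe, which differs by genotype between these libraries, was not left out when clusters were found. Its part in forming cluster 6 was not tested.

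Aneurysm against room air gave ratios on both sides of 1. It was 1.27 in T-cell-like (1.26 to 1.27), 1.15 in endothelial-like, 1.14 in NK-like, 1.13 in B-cell-like, 1.12 in neutrophil-like, 1.07 in mature-dendritic-cell-like, 1.06 in cDC2-like and 1.04 in macrophage-like cells. The cDC1-like ratio was 0.999 (0.990 to 1.01), so no difference beyond counting error was seen there. Monocyte-like cells, at 0.959 (0.951 to 0.967), and gamma-delta-T-like cells, at 0.905 (0.891 to 0.918), had lower shares in aneurysm. Among cells with 2000 to 5000 UMIs, endothelial-like cells turned to the other side of 1, with 15.3% in 21 room air cells and 14.6% in 14 aneurysm cells.

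The T-cell-like class joined 3 clusters that differed in their ribosomal protein share and in their library makeup. Cluster 5, led by Dapl1, Cd8b1 and Lef1, had 43.2% in the control library, 36.0% in room air and 41.1% in aneurysm. Cluster 7, led by Izumo1r, Lef1, Cd28 and Cd4, had 41.3%, 29.9% and 36.0%. Cluster 8, led by Gzmk, Nkg7 and Ccl5, which mark cytotoxic T cells, had 26.4% in room air and 27.4% in aneurysm, and only 2 of its cells were from control. It made up 57.6% of the T-cell-like cells in room air, 15.7% in aneurysm and 2.15% in control.

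Within clusters the library difference was smaller but had the same direction. Room air against control was 0.834 (0.824 to 0.843) in cluster 5 and 0.724 (0.714 to 0.733) in cluster 7. Aneurysm against room air was 1.14 in cluster 5, 1.21 in cluster 7 and 1.04 in cluster 8. With cluster 8 left out of the class, the ratios of the class were 0.773 and 1.19. Among cells with 2000 to 5000 UMIs, which brings depths closer, the class had 44.1% in 38 control cells, 29.7% in 333 room air cells and 37.8% in 486 aneurysm cells.

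**Figure D2:**
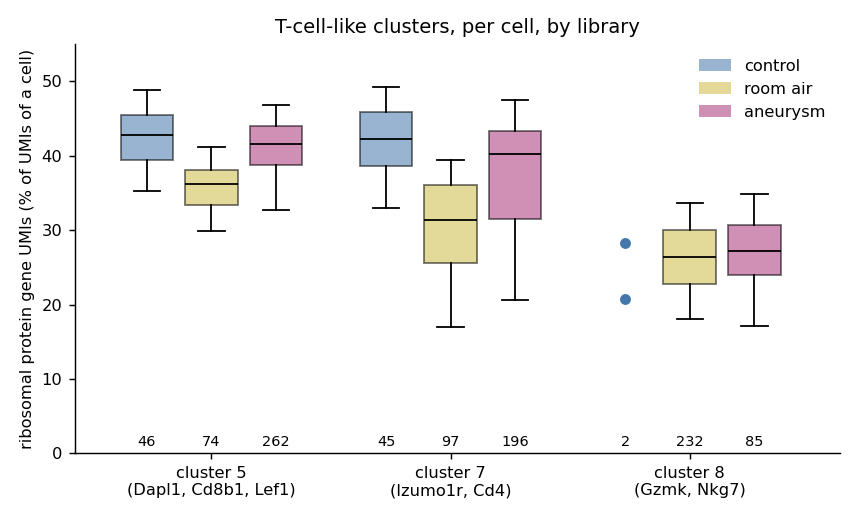
Ribosomal protein share of UMIs per cell in the 3 T-cell-like clusters, by library, with boxes at the quartiles, whiskers at the 5th and 95th percentiles of cells, points for single cells where a library has 2, and the number of cells under each box. Room air medians (36.2% and 31.3%) lie below those of control (42.8% and 42.2%) and aneurysm (41.5% and 40.2%) in clusters 5 and 7, and cluster 8 has medians of 26.3% and 27.2% in the Apoe-/- libraries.

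Other gene lists were set beside the ribosomal protein genes in T-cell-like cells, as medians of the log2 ratio of UMI shares over genes with at least 50 UMIs in both libraries together. Shares of UMIs are parts of a whole, so a lower share of the set by itself raises those of other genes, and a higher share lowers them. The medians of the set and of other genes are therefore not independent. For room air against control, the median was -0.51 over 81 ribosomal protein genes and 0.36 over all 3073 genes. It was 0.04 over 15 other genes with TOP mRNAs (elongation and initiation factors, Tpt1, Naca and others), 0.08 over 18 ribosome biogenesis genes and 0.08 over 53 mitochondrial ribosomal protein genes. For aneurysm against room air, the medians were 0.37 for ribosomal protein genes, 0.33 for the other TOP genes, 0.25 for biogenesis genes, -0.06 for mitochondrial ribosomal protein genes and -0.13 for all 5100 genes. In the former comparison the medians of the other TOP, biogenesis and mitochondrial lists thus lay below that of all genes and above that of the set. In the latter, 15 of 15 other TOP genes were above 1 as a ratio. Genes of the immediate-early and heat shock response, which are known to appear when tissue is dissociated, went the other way: their summed share in T-cell-like cells was 0.261% in control against 0.596% and 0.347% in the room air and aneurysm libraries. The same list was at 0.341%, 0.594% and 0.305% in B-cell-like and at 0.557%, 0.712% and 0.515% in macrophage-like cells, and its part in the ribosomal protein result was not tested.

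A single gene was called where its share of UMIs differed by at least 1.5-fold. For room air against control in T-cell-like cells, 26 of 81 genes were called, all of them lower in room air, where 5.08% of all genes tested were lower by that fold and 41.4% were called in either direction. They were 14 small-subunit genes, 11 large-subunit genes and Rpl22l1. All 81 had a ratio below 1. Without cluster 8 the count was 2, where 30% of all genes were called. When each ratio was divided by the median over all genes it was 78, where 38.2% were. Shares of UMIs are parts of a whole, so that median rises when the set falls, and the 78 includes this rise. In cluster 7 alone 18 of 80 were lower by 1.5-fold (7.23% of all genes) and in cluster 5 alone 0 of 80 (3.66%).

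Rps26, a protein at the mRNA exit site of the small subunit, had 2603 CPM in the control library, 1454 in room air and 1971 in aneurysm. Its ratio of room air to control, 0.559 (0.505 to 0.619), was the lowest of the 81. Rps29, a zinc-binding protein of the small subunit, had 13710.4, 7916 and 9665. Rps28, also of the small subunit, had 10066, 5827 and 6264. Each of these 3 genes was highest in control and lowest in room air. Cluster 8 made up 57.6% of the T-cell-like cells in room air and 2.15% in control. In room air this cluster had 1127, 6440 and 4979 CPM of Rps26, Rps29 and Rps28, each below the class. Its part in the ratios of these genes was not tested. At the other end, Rpl3, which reaches toward the peptidyl transferase centre, had 4733, 4216 and 5863 CPM, with a room air to control ratio of 0.891 (0.829 to 0.958). Rpl6l (0.889, 0.751 to 1.06) and Rpl7l1 (0.996, 0.591 to 1.78) had intervals that reach 1.

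For aneurysm against room air in T-cell-like cells, 0 of 81 genes were called where 18.2% of all genes were, although 79 of 81 had a ratio above 1. Rpl5, which with Rpl11 and the 5S rRNA forms a particle that binds Mdm2, had 1367, 944 and 1372 CPM in control, room air and aneurysm, a ratio of 1.45 (1.35 to 1.57). Rps2 (1.45) and Rps6 (1.44), the substrate of the S6 kinases, followed. Rpl7l1 (0.669, 0.498 to 0.897) and Rps27l (0.755, 0.625 to 0.912) were the 2 below 1. Rpl27 was nearly level, at 2260.3 in room air and 2284 in aneurysm. Within cluster 8 alone, the aneurysm to room air ratios of Rpl5, Rps2 and Rps6 were 1.16, 1.30 and 1.09, each below that of the class.

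In macrophage-like cells, 1 of 81 genes was called for room air against control, where 32.5% of all genes were. This was Rps29, with 8318 CPM in the control library, 5204 in room air and 5047 in aneurysm, a room air to control ratio of 0.626 (0.612 to 0.640). Without cluster 6 the count was 5, where 48.2% of all genes were called. Rplp1, part of the stalk that recruits translation factors, had 2423, 1776 and 1818, and Rps28 had 4374, 3235 and 2829. Against this, Rpl3 had 1497, 2157 and 2242 (ratio 1.44), Rpl4, which lines the exit tunnel, had 861, 1179 and 1231 (ratio 1.37), and Rplp0, the base of the stalk, had 1853, 2379 and 2653 (ratio 1.28). Among the 81 genes, 19 were above 1 and 62 below, with a median log2 ratio of -0.14 against 0.15 over all 7648 genes. The genes thus lay on both sides of 1 in these cells.

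Between aneurysm and room air in macrophage-like cells, 0 of 81 genes were called where 5.82% of all genes were. The median log2 ratio was 0.07 against -0.02 over all genes. Rps2 (1279 to 1471 CPM), Rpl10 (2242 to 2575), a late-joining protein of the large subunit, and Rpl13 (3201 to 3636) had ratios of 1.15, 1.15 and 1.14. The lowest ratios were those of Rps28 (0.875), Rpl6l (0.878) and Rpl7l1 (0.900, 0.788 to 1.03).

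In B-cell-like cells, 0 of 81 genes were called for room air against control, where 25.1% of all genes were. Rpl30 had the lowest ratio, 0.790, with 1693 CPM in the control library, 1337 in room air and 1539 in aneurysm, followed by Rpl35a (0.863) and Rps29 (0.865). Rpl3 was at 1.21, and Rps27l (1.37, 0.845 to 2.33) and Rpl7l1 (1.41, 0.686 to 3.26) had wide intervals. For aneurysm against room air, 1 of 81 was called, where 14% of all genes were. It was Rps27l, with 187 CPM in room air and 121 in aneurysm (ratio 0.647, 0.504 to 0.833). The ratios of Rps2, Rpl10 and Rpl6 were 1.34, 1.29 and 1.253, and Rps28 was at 0.938. Among genes with at least 500 UMIs, which leaves out Rps27l, 0 were called against 4.41% of all genes.

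At a lower limit, a ratio of 5 to 4, room air against control called 17 genes of the set in macrophage-like cells (56.8% of all genes), 74 in T-cell-like cells (64.7%) and 3 in B-cell-like cells (48.8%). Aneurysm against room air called 0 in macrophage-like cells (22.4%), 60 in T-cell-like cells (43.1%) and 5 in B-cell-like cells (38.1%). At this limit the called share of the set lay above that of all genes in T-cell-like cells and below it in macrophage-like and B-cell-like cells. Most genes of the set have far more than 50 UMIs, so the shares of all genes hold more counting error. For aneurysm against room air in B-cell-like cells, 14% of all genes passed 1.5-fold with at least 50 UMIs and 4.41% with at least 500.

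**Figure D3:**
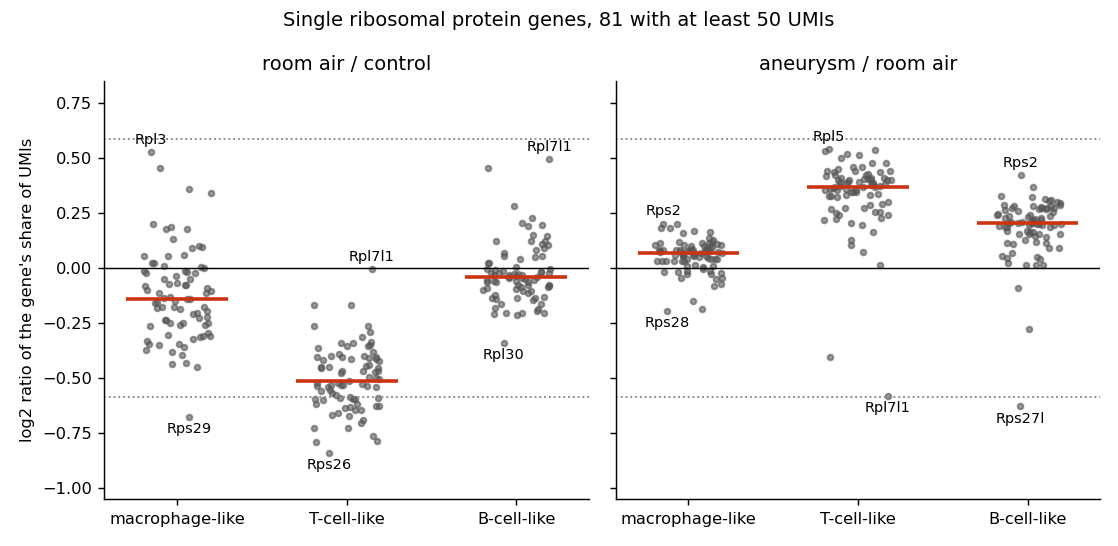
Log2 ratio of each gene's share of UMIs between libraries for the 81 genes with at least 50 UMIs, in 3 classes, with the median as a bar, the 1.5-fold limits dotted and the lowest and highest gene named. The T-cell-like genes sit below 0 for room air against control (median -0.51) and mostly above 0 for aneurysm against room air (median 0.37), while macrophage-like genes spread around medians of -0.14 and 0.07.

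Dividing each gene's ratio by that of the summed set shows which genes departed from the set. For room air against control, Rpl3 was above the set in 6 of 6 classes, by 1.26- to 1.60-fold, and Rpl4 in 6 of 6, by 1.18- to 1.52-fold. Rplp0, Rpsa, Rps6, Rps3a1, Rpl7, Rpl15 and Rpl19 were also above it in 6 of 6, each by less than 1.5-fold. Rpl7l1, with few UMIs, was above it in 4 of the 4 classes where it was measured, by 1.41- to 1.61-fold. Rps29 was below the set in 6 of 6, at 0.695 to 0.969 of it, Rps28 at 0.821 to 0.960 and Rpl30 at 0.818 to 0.984, as were Rps10, Rpl36 and Rpl23a. All classes of a comparison come from the same 2 libraries, so these counts are not independent.

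Between aneurysm and room air, Rps28 was below the set in 11 of 11 classes, at 0.736 to 0.879 of it. In gamma-delta-T-like cells Rps28 had 4500.1 CPM in room air and 2997 in aneurysm. Rpl7l1 was below the set in 7 of 7 classes that had enough UMIs. Rpl10, Rpl13, Rpl5, Rpl9, Rps7 and Rps23 were above it in 11 of 11, where Rpl10 reached 1.03 to 1.22 of it. Rps27, Rps29, Rps14, Rpl13a, Rpl19, Rpl37a and Rpl38 were below it in 10 of 11, and Rpl18, Rpl39, Rplp0 and Rps2 were above it in 10 of 11.

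Across genes, the room air to control ratio was higher for longer annotated transcripts in macrophage-like cells (Spearman's rank correlation 0.54, 81 genes). The 13 genes of at most 500 bases had a median log2 ratio of -0.34, and the 23 genes of at least 1000 bases had -0.02. Length was that of a single annotated transcript per gene, the principal isoform where one was marked. The transcripts used in these cells were not measured, and Rps20 counts here with 3706 bases. Rps29 has 390 bases and Rps28 392, whereas Rpl3 has 1351 and Rpl4 1538. The correlation was 0.52 in monocyte-like, 0.46 in B-cell-like, 0.29 in endothelial-like, 0.28 in cDC1-like and 0.26 in T-cell-like cells. Over the genes that shared no 98-base stretch with another gene, it was 0.51 in macrophage-like (44 genes), 0.51 in monocyte-like, 0.37 in B-cell-like, 0.41 in endothelial-like, 0.15 in cDC1-like and 0.38 in T-cell-like cells. For aneurysm against room air the correlation was 0.18 in macrophage-like, 0.15 in monocyte-like and 0.16 in B-cell-like cells, each lower than for room air against control. It was 0.34 in endothelial-like, 0.32 in cDC1-like and 0.28 in T-cell-like cells, each slightly higher. Over the genes that shared no 98-base stretch, it was 0.15 in endothelial-like and 0.08 in T-cell-like cells, each lower than for room air against control. In cDC1-like cells it was 0.20, which was higher. In macrophage-like, monocyte-like and B-cell-like cells it was 0.09, 0.06 and 0.04. Genes are not independent replicates and all of them were read from the same 2 libraries, so no p is given.

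**Figure D4:**
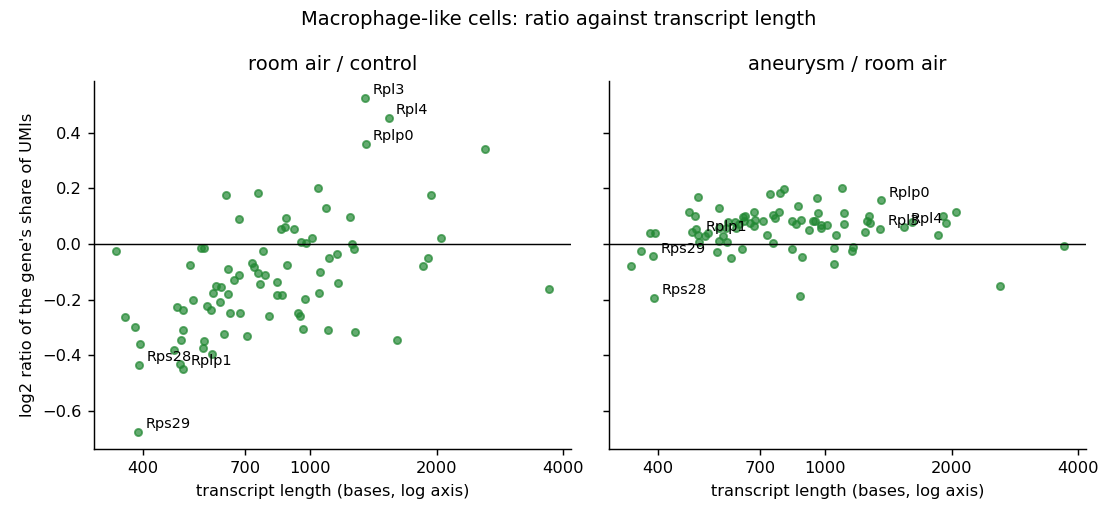
Log2 ratio of each gene's share of UMIs in macrophage-like cells against annotated transcript length on a log axis, for room air over control and aneurysm over room air, 81 genes each. For room air over control the short Rps29 (390 bases) and Rps28 (392 bases) lie low and the longer Rpl3 (1351 bases) and Rpl4 (1538 bases) lie high (rank correlation 0.54), and the relation is weaker for aneurysm over room air (rank correlation 0.18).

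The makeup of the set also differed between cell classes. Each gene was taken as a share of all ribosomal protein UMIs, averaged with equal weight over the 3 libraries in the 6 classes present in all. Among the 80 genes with at least 50 UMIs in each class, the highest class was 1.31-fold above the lowest in the median. It was under 1.5-fold in 61 and at least 2-fold in 3 genes. Rpl11 varied least, at 1.04-fold (0.979% to 1.02%).

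Rps27l, a p53-induced paralogue of Rps27, varied most among these 6 classes, at 7.15-fold. It made up 0.358% of ribosomal protein UMIs in macrophage-like, 0.331% in endothelial-like, 0.267% in monocyte-like and 0.244% in cDC1-like cells, against 0.0568% in T-cell-like and 0.0500% in B-cell-like cells. In control, room air and aneurysm it had 604, 488 and 549 CPM in macrophage-like cells against 137, 187 and 121 in B-cell-like and 263, 198 and 149 in T-cell-like cells. The levels of B-cell-like and T-cell-like cells lay below those of macrophage-like cells in each library. Mature-dendritic-cell-like cells, absent from control and so outside the 6 classes, had more than macrophage-like cells, with 1194 CPM in room air and 1519 in aneurysm, or 0.881% and 1.04% of their ribosomal protein UMIs. Of the UMIs of Rps27 and Rps27l together, Rps27l held 10.9%, 9.11% and 10.7% in macrophage-like cells and 0.796%, 1.23% and 0.794% in B-cell-like cells. Rps27 itself, the most abundant gene of the set, went the other way: it made up 5.26% of ribosomal protein UMIs in B-cell-like and 4.64% in T-cell-like cells against 3.16% in macrophage-like and 3.01% in cDC1-like cells. Rps27 shares nearly all its sequence with Rps27rt and Rps27l shares none, as given above.

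Rpl10 was 1.84% of the set in monocyte-like and 0.865% in T-cell-like cells. In monocyte-like cells it was 1.88%, 1.79% and 1.85% by library and in T-cell-like cells 0.838%, 0.827% and 0.929%. These were its highest and lowest of the 6 classes, and most of the 80 genes kept such an order in all 3 libraries. Rpl10 shares 91.6% of its read-length stretches with other annotated genes. Rpl12, at the base of the stalk, had these 2 classes in reverse order, with 0.557% in T-cell-like and 0.266% in monocyte-like cells. Rpl22l1, the paralogue of Rpl22, had 2267, 1370.4 and 1817 CPM in T-cell-like cells of control, room air and aneurysm, against 605, 599 and 588 in macrophage-like cells. For 100 UMIs of Rpl22 there were 150.2, 141 and 141 of Rpl22l1 in T-cell-like and 82.1, 106 and 95.9 in macrophage-like cells. Monocyte-like cells had 73.2, 142 and 90.9, so in room air they were level with T-cell-like cells. B-cell-like cells had 113, 105 and 101, endothelial-like cells 93.4, 111 and 103, and cDC1-like cells 68.7, 49.5 and 63.4. Rps9 was highest in monocyte-like (2.20%) and lowest in T-cell-like cells (1.26%), and Rps15a highest in T-cell-like (1.81%) and lowest in endothelial-like cells (1.09%). Rpl36a and Rpl28 were highest in endothelial-like cells, at 0.909% and 0.672%.

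Of the remaining like genes, Rpl6l had 330 to 376 CPM in macrophage-like and 766 to 862 in T-cell-like cells, and it shares 29.6% of its read-length stretches with Rpl6. Rpl7l1 had 71.1 to 90.1 in macrophage-like and 59.5 to 89.4 in T-cell-like cells. Rpl3l, the paralogue of Rpl3 known from striated muscle, had 1, 12 and 27 UMIs in monocyte-like cells of control, room air and aneurysm, which is 5.64, 26.1 and 18.9 CPM. Rpl10l had 1 UMI in all, in a macrophage-like cell of room air. Rpl39l had 5, 5 and 4 UMIs in macrophage-like cells.

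**Figure D5:**
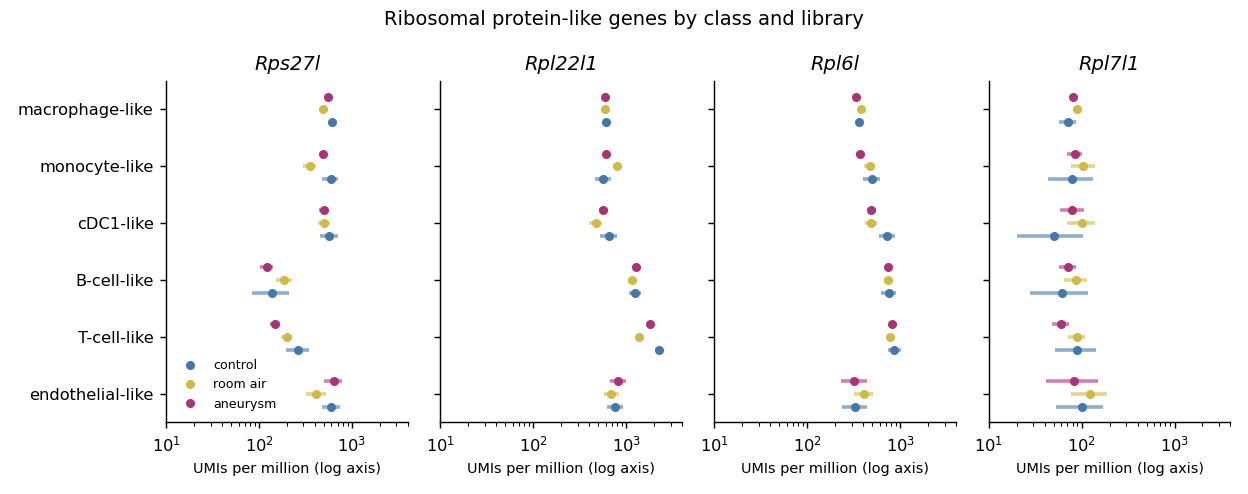
CPM (log axis) of 4 ribosomal protein-like genes in 6 classes and 3 libraries, with exact Poisson intervals that cover counting error only. Rps27l lies at 488 to 604 in macrophage-like cells and at 121 to 263 in B-cell-like and T-cell-like cells, and Rpl22l1 is highest in T-cell-like cells at 1370.4 to 2267.

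Over 30 pairs of class and library and 5028 genes outside the set, the genes whose level followed the summed ribosomal protein share most closely were Gm9493 (Spearman's rank correlation 0.95), Gnb2l1 (0.93), Snrpf (0.91), Rps18-ps3 (0.91) and Snrpg (0.90). Gnb2l1 encodes the ribosomal scaffold RACK1, and Snrpf and Snrpg encode core proteins of the splicing particles. Rps18-ps3 is named as a copy of Rps18, a gene of the set, and how reads were shared between them was not tested. Gnb2l1 had 558, 499 and 522 CPM in macrophage-like and 1146, 819 and 1076 in T-cell-like cells. The points share 3 libraries and are given as a description.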

How the data were processed

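The authors deposited raw UMI counts for each gene and barcode, made from 10x Genomics 3′ v2 libraries with 98-base reads, per the labels' protocols, with no normalization. Cell Ranger, STAR and mm10 are named in the submitters' processing notes; their versions are not given in the sources used here. Beside the 782, 1851 and 2842 barcodes of control, room air and aneurysm, the labels state 738, 1736 and 2685 cells; a smoke group without aneurysm was not analysed here. Barcodes needed at least 200 genes and at most 10% mitochondrial UMIs. Scrublet in scanpy 1.11.5 marked 3 of 5465 cells (0.0549%) by its own threshold, so the highest scores up to 0.8% per 1000 barcodes were removed (5, 27 and 64 cells). Counts scaled to 10000 and log-transformed gave 22 clusters (2000 variable genes, without ribosomal, mitochondrial ribosomal and TOP genes; 30 components, 15 neighbours, Leiden resolution 1), named where at least 3 markers were detected and the mean score was at least 0.5. Cluster 17, led by cell division genes (Top2a, Birc5), stayed unnamed (23, 38 and 46 cells).

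UMIs were summed per class and library. Shares carry Clopper-Pearson, ratios exact conditional binomial and low counts Poisson 95% intervals (SciPy 1.17.1). A gene needed at least 50 UMIs over both libraries. Shared stretches were found with BLAST 2.17.0+ in GENCODE M21 transcripts. The ratio and the 1.5-fold rule were also written out separately and applied to simulated counts, and the outcome is not reported here. Genes named are the 3 highest and 3 lowest ratios of each main comparison, the 10 that vary most between classes, the 5 with most and fewest UMIs and every paralogue or like gene; genes above or below the set in all or all but 1 class were named after their values were seen. A few genes that the rule names are not reported here. The members and lists were chosen with earlier results of these data known.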

Additional observations from a re-analysis of the deposited data

Results flagged for a closer look

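For aneurysm against room air, the summed ribosomal protein share lay on opposite sides of 1 in different classes. T-cell-like cells had a ratio of 1.27, whereas monocyte-like cells had 0.959 and gamma-delta-T-like cells 0.905. Each rests on 1 library per group, and the difference between the classes was not tested.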

How the results depend on the processing

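Each ratio and count has 1 library on either side, so spread between mice was not measured, and counting limits only genes with few UMIs such as Rpl7l1. Over 52 alternatives for 6 ratios of the summed share (macrophage-like, T-cell-like and B-cell-like cells), 0 turned to the other side of 1, 23 stayed within the counting interval and 29 left it. Over 70 alternatives for 6 counts of genes past 1.5-fold, 44 stayed within 1.5 times and 26 did not. The cause of these shifts was not tested. No paired analysis was possible because each group has 1 library and no replicate numbers.

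Room air against control in macrophage-like cells (0.901) gave 0.941 with doublets kept, 0.944 at a 5% mitochondrial limit, 0.940 with clusters found with the ribosomal genes, 0.940 with cells classed by their own markers, 0.896 over non-mitochondrial UMIs, 0.958 in cells with 2000 to 5000 UMIs, 0.959 as a mean of cells and 0.761 without cluster 6. The count (1) was 2 with doublets kept, 2 at the 5% limit, 2 with those clusters, 3 with own markers, 17 at a 5 to 4 limit, 2 with at least 1 UMI, 2 divided by the median ratio of all genes and 5 without cluster 6. Aneurysm against room air (1.04) gave 1.06 with doublets kept, 1.05 at the 5% limit, 1.02 with free RNA at 10% subtracted, 1.02 as a mean of cells and 1.03 without cluster 6. Its count (0) was 1 in cells with 2000 to 5000 UMIs and 1 with at least 1 UMI.

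Room air against control in T-cell-like cells (0.702) gave 0.711 with doublets kept, 0.693 with own markers, 0.695 over non-mitochondrial UMIs, 0.674 in cells with 2000 to 5000 UMIs, 0.695 as a mean of cells and 0.773 without cluster 8. The count (26) was 41 in cells with 2000 to 5000 UMIs, 74 at a 5 to 4 limit, 78 divided by the median ratio and 2 without cluster 8. Aneurysm against room air (1.27) gave 1.22 with own markers, 1.28 over non-mitochondrial UMIs, 1.27 with free RNA subtracted, 1.29 as a mean of cells and 1.19 without cluster 8. Its count (0) was 1 in cells with 2000 to 5000 UMIs, 2 with free RNA subtracted, 60 at a 5 to 4 limit, 1 with at least 1 UMI and 10 divided by the median ratio.

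Room air against control in B-cell-like cells (0.966) gave 0.947 with own markers, 0.862 in cells with 2000 to 5000 UMIs (8 control cells) and 0.980 with free RNA subtracted. The count (0) was 2 in cells with 2000 to 5000 UMIs, 1 with free RNA subtracted and 3 at a 5 to 4 limit. Aneurysm against room air (1.13) gave 1.12 with own markers and 1.14 over non-mitochondrial UMIs. Its count (1) was 0 with own markers, 5 at a 5 to 4 limit, 0 with at least 500 UMIs and 0 divided by the median ratio. Leaving out clusters 6 and 8 was chosen after seeing the data.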

Other observations

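Genes outside the set that resemble its members differed from it between aneurysm and room air. Rps27rt, the copy of Rps27, had 781, 796 and 482 CPM in macrophage-like cells of the control, room air and aneurysm libraries, and 2785, 3018 and 1789 in B-cell-like cells.

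Annotated copies of ribosomal protein genes, mostly pseudogenes, were lower in aneurysm in 12 of 13 in macrophage-like cells, with a median ratio of 0.797 against 1.05 for the ribosomal protein genes. They were lower in 13 of 13 in B-cell-like cells (0.822 against 1.15) and in 8 of 13 in T-cell-like cells (0.913 against 1.29). For room air against control the medians of copies and ribosomal protein genes were closer. The copies were lower in room air in 9 of 13 in macrophage-like (0.962 against 0.907), 7 of 11 in B-cell-like (0.964 against 0.971) and 11 of 11 in T-cell-like cells (0.769 against 0.701). How reads were shared between genes and copies in each library was not tested. These genes were looked at after seeing the data.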
